A study of Mus musculus with 24 samples.

Results

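The genes described here are 59 neighbours of Fkbp1a on mouse chromosome 2. They were chosen by position, as count table rows whose symbol is on a list of genes lying on both sides of Fkbp1a, which itself was left out. All 59 were found among the 52724 gene rows of the count table. After a filter on low counts 54 of them were tested among 16018 genes. The first of the 59 to start is Kiz, at base 146855864, and the last is Cdk5rap1, at base 154335380, in GENCODE M21 coordinates on GRCm38. Relative to the start of Fkbp1a these starts lie at -4.69 and 2.79 Mb.

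RNA was sequenced from whole mouse hearts in 24 libraries of 4 genotypes, with 6 libraries each and 3 of every genotype in each of 2 batches. FKl/l MHC+ combines a floxed Fkbp1a allele with Cre recombinase driven by the α-myosin heavy chain promoter, which is active in heart muscle cells. FKl/l MCK+ combines that allele with Cre driven by the muscle creatine kinase promoter, which is active in striated muscle. Per the series text, these promoters differ in the stage of development at which Cre appears and in how much Cre they give. FKl/l carries the floxed allele with no Cre named in its label, and MHC CRE Only carries the α-myosin heavy chain Cre without the floxed allele. FKl/l is read here as that floxed allele, since the labels do not spell it out. It is shared by the first 3 genotypes and named in none of the MHC CRE Only labels. The labels give no strain, sex, age or animal identity. Strain, age and the DNA inherited together with the floxed allele thus cannot be told apart from genotype. A p-value here sets a difference between genotypes only against how much libraries of a genotype vary, and that variation may be technical.

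FKBP12, the protein made from Fkbp1a, is an immunophilin that attaches to the ryanodine receptor, the calcium release channel of muscle. An allele made by gene targeting is passed on together with the stretch of chromosome around it, since recombination separates close neighbours only rarely, so genes beside a targeted gene can differ in sequence from those of mice bred without it. The genes around Fkbp1a do not form a pathway. They include a glycogen-degrading enzyme, a vitamin transporter, chromatin regulators, vessel-lining proteins and parts of the cell division machinery.

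Fkbp1a itself was read first, as a check of the labels. Its lowest, median and highest levels were 43.5, 56.1 and 75.7 CPM (counts scaled to library size) in FKl/l MHC+, 51.1, 64.6 and 81.1 in FKl/l MCK+, 120.8, 127 and 147 in FKl/l, and 81.8, 128.5 and 138 in MHC CRE Only. Set against FKl/l, its level fell by 1.15 ± 0.13 (SE) on the log2 scale in FKl/l MHC+ (edgeR adjusted p = 5.47e-06) and by 1.00 ± 0.12 in FKl/l MCK+ (edgeR adjusted p = 0.00032). The lowest of the MHC CRE Only values, 81.8 CPM, belongs to the library labelled MHC CRE Only 1-3, and the other 5 lay between 122 and 138 CPM. That library stands just above the highest Cre-carrying floxed library, 81.1 CPM, which goes against its label, and results for the neighbours are given below with and without it.

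The neighbours that separated the floxed genotypes from MHC CRE Only most clearly were Pygb, Slc52a3, Zcchc3 and Rem1. The reference promoters of Pygb, Zcchc3 and Rem1 are shown because these genes changed in every floxed genotype. Each runs 5′ to 3′ from 250 bases before to 50 bases after the RefSeq gene start, on GRCm38.p6, and is reference sequence, not sequence read from these mice. RefSeq promoter entries were matched for 43 of the 59 genes, and Slc52a3 was not among them. Capitals mark matches on either strand to GGGCGG (the GC box bound by Sp proteins), CCAAT or TATAAA (the TATA box), and the marked matches do not overlap. The windows lie at chr2:150786546-150786845 on the plus strand for Pygb, chr2:152414995-152415294 on the minus strand for Zcchc3 and chr2:152626758-152627057 on the plus strand for Rem1.
Pygb: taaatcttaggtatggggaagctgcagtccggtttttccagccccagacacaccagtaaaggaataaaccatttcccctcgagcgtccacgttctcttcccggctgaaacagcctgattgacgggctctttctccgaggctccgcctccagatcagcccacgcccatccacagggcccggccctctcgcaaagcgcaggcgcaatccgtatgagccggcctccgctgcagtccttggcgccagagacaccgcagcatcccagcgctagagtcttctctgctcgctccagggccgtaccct
Zcchc3: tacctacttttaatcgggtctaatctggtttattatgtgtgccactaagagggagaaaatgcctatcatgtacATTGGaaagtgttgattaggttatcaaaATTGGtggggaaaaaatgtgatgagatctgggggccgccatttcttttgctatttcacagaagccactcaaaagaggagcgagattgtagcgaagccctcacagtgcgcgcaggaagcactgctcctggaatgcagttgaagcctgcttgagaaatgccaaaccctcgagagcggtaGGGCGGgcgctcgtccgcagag
Rem1: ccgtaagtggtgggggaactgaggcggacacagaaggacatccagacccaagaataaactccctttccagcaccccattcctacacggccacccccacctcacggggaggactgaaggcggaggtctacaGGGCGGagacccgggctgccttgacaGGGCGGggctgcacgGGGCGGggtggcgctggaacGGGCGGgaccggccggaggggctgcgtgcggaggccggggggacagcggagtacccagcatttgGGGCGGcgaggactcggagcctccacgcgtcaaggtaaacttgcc

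The Rem1 window holds 5 GC boxes and is 68.0% G and C. The Zcchc3 window holds 1 GC box and 2 CCAAT boxes and is 48.3% G and C, and the Pygb window holds none of the 3 motifs and is 60.7% G and C. Among the 32851 RefSeq promoter windows of the same length, 35.7% hold GGGCGG, 37.4% hold CCAAT and 13.6% hold TATAAA, with a median of 52.7% G and C. These matches describe the letters of the windows only.

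Across all floxed hearts, 7 of the 54 tested neighbours changed against MHC CRE Only, 5 lower and 2 higher. Pygb, Slc52a3, Zcchc3, Asxl1 and Commd7 fell, and Rem1 and 6820408C15Rik rose. That is 13.0% of the tested neighbours, against 0.387% of all genes tested (62 of 16018), with 0.206% of all genes called lower and 0.181% called higher. A gene is called where its p from edgeR's quasi-likelihood test, adjusted over all genes tested, is under 0.05. The 4 lowest p-values of all 16018 genes were those of Pygb, Slc52a3, Zcchc3 and Rem1. The comparison sets the mean of the 3 floxed genotypes over MHC CRE Only in 1 fit with a batch term, and fold changes below are on the log2 scale with their standard error (SE). In bulk hearts fewer cells of a type and less RNA per cell cannot be told apart.

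**Figure D1:**
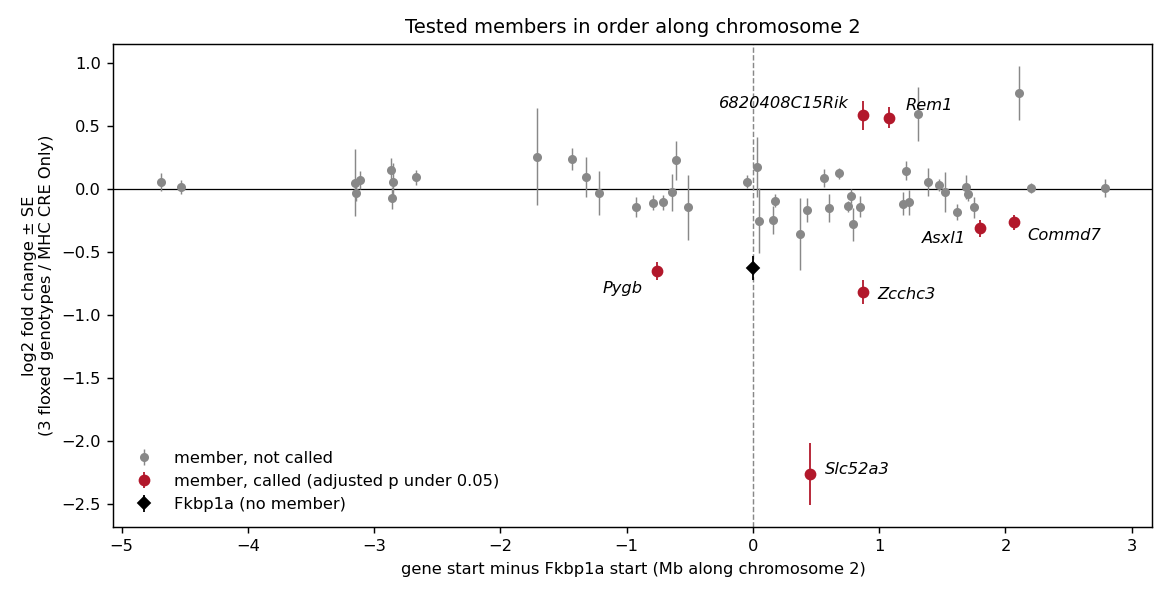
Log2 fold change ± SE of each of the 54 tested neighbours in the 3 floxed genotypes over MHC CRE Only, against the distance of its start from that of Fkbp1a in Mb. The 7 called genes (red) lie between -0.756 and 2.07 Mb, with Slc52a3 lowest at -2.27, the 47 uncalled genes (grey) run from -0.36 (Angpt4) to 0.76 (Dnmt3b), and Fkbp1a is the black diamond.

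Pygb encodes the brain form of glycogen phosphorylase, which releases glucose units from glycogen and is also made in the heart. It lies at chr2:150786735-150831758, 0.756 Mb before Fkbp1a. In CPM, its lowest, median and highest levels were 459, 543 and 648 in FKl/l MHC+, 434, 644 and 704 in FKl/l MCK+, 409.9, 546 and 725 in FKl/l, and 816, 883 and 943 in MHC CRE Only. All 18 floxed libraries lay below all 6 MHC CRE Only libraries. Pygb fell by 0.65 ± 0.07 (SE) on the log2 scale in the floxed genotypes, to 63.6% of the MHC CRE Only level (adjusted p = 3.58e-06). Scaled to exon length it is abundant, at 135 CPM per kb of exon over all libraries, second among the 59 to Cst3 (447 CPM per kb), which encodes the protease inhibitor cystatin C and did not pass the test (log2 fold change 0.09, adjusted p = 0.564).

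The size of the Pygb difference was not the same in both batches. The log2 fold change was -0.83 in batch 1 and -0.47 in batch 2, a difference of 0.355 that passed the test of the interaction (adjusted p = 0.043), and Pygb was called in either batch alone (adjusted p = 0.00165 in batch 1 and 0.000213 in batch 2). In FKl/l the batch 1 libraries had 409.9, 447 and 468.5 CPM and the batch 2 libraries 623, 651 and 725 CPM. MHC CRE Only libraries had 816, 855 and 910.5 CPM in batch 1 and 836, 931 and 943 CPM in batch 2. The batches thus lay apart within FKl/l, as they did within FKl/l MHC+ and FKl/l MCK+, and overlapped within MHC CRE Only. That interaction was called for 6 of the 54 tested neighbours (11.1%, against 9.25% of all genes tested). DESeq2 called it for 7 neighbours (of 1622 genes called) and limma voom for 6 (of 1449). Without the library labelled MHC CRE Only 1-3 edgeR called 0 of them, and 183 of all 16189 genes tested.

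Slc52a3 encodes a riboflavin transporter, which carries vitamin B2 into cells. It lies at chr2:151996511-152009258, 0.454 Mb after Fkbp1a, and was a low gene throughout, at 0.207 CPM per kb. The lowest, median and highest CPM values of Slc52a3 were 0.113, 0.294 and 0.443 in FKl/l MHC+, 0.0337, 0.328 and 0.436 in FKl/l MCK+, 0.139, 0.306 and 0.446 in FKl/l, and 0.992, 1.39 and 1.84 in MHC CRE Only. In reads this is 1 to 16 counts per floxed library against 34 to 61 counts per MHC CRE Only library, and no floxed library reached the MHC CRE Only range. Slc52a3 fell by 2.27 ± 0.24 (SE) on the log2 scale in the floxed genotypes, to 20.8% of the MHC CRE Only level (adjusted p = 3.58e-06), the largest change among the 54. The log2 fold change was -2.12 in batch 1 and -2.44 in batch 2.

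Zcchc3 encodes a CCHC zinc finger protein that binds nucleic acids and acts with innate sensors of foreign DNA and RNA. It lies at chr2:152411955-152415027 on the minus strand, 0.869 Mb after Fkbp1a. Zcchc3 had lowest, median and highest CPM values of 3.4, 4.03 and 4.63 in FKl/l MHC+, 3.66, 4.23 and 4.65 in FKl/l MCK+, 3.48, 4.01 and 5.301 in FKl/l, and 5.309, 7.19 and 9.37 in MHC CRE Only. The groups did not overlap, but the highest FKl/l library and the lowest MHC CRE Only library, the one labelled 1-3, differed by less than 0.01 CPM. Zcchc3 fell by 0.82 ± 0.09 (SE) on the log2 scale in the floxed genotypes, to 56.6% of the MHC CRE Only level (adjusted p = 1.06e-05). By batch it was -0.61 in batch 1 and -1.01 in batch 2.

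The next gene along the chromosome, 6820408C15Rik, changed in the other direction. It is a little-known gene on the plus strand at chr2:152415587-152444330, which holds a small nuclear RNA gene, Gm27343, on the same strand. In GENCODE it starts 560 bases past the start of Zcchc3, which is on the minus strand, so the genes run in opposite directions. In CPM, the lowest, median and highest levels of 6820408C15Rik were 1.55, 2.37 and 2.82 in FKl/l MHC+, 2.27, 2.77 and 3.08 in FKl/l MCK+, 2.71, 3.19 and 3.32 in FKl/l, and 1.44, 1.75 and 2.32 in MHC CRE Only. All 6 FKl/l libraries lay above MHC CRE Only, while FKl/l MHC+ and FKl/l MCK+ overlapped it. Its level rose by 0.58 ± 0.12 (SE) on the log2 scale across the floxed genotypes (adjusted p = 0.0253). The call was lost without any 1 of MHC CRE Only 1-1, 1-2, 1-3, 2-1 and 2-2 (adjusted p up to 0.0817) and in batch 2 alone (log2 fold change 0.48, adjusted p = 0.155).

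Rem1 encodes a small GTPase of the RGK family, whose members inhibit voltage-gated calcium channels. It lies at chr2:152626951-152635198, 1.08 Mb after Fkbp1a. Rem1 had lowest, median and highest CPM values of 4.86, 5.35 and 6.53 in FKl/l MHC+, 5.69, 6.27 and 8.67 in FKl/l MCK+, 5.17, 6.35 and 7.05 in FKl/l, and 3.68, 4.09 and 4.65 in MHC CRE Only. All 18 floxed libraries lay above all 6 MHC CRE Only libraries. Rem1 rose by 0.57 ± 0.08 (SE) on the log2 scale in the floxed genotypes, to 148% of the MHC CRE Only level (adjusted p = 0.000741). By batch, Rem1 had a log2 fold change of 0.68 in batch 1 and 0.46 in batch 2. The call was lost when tested against a minimum fold of 1.2 (adjusted p = 0.257).

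**Figure D2:**
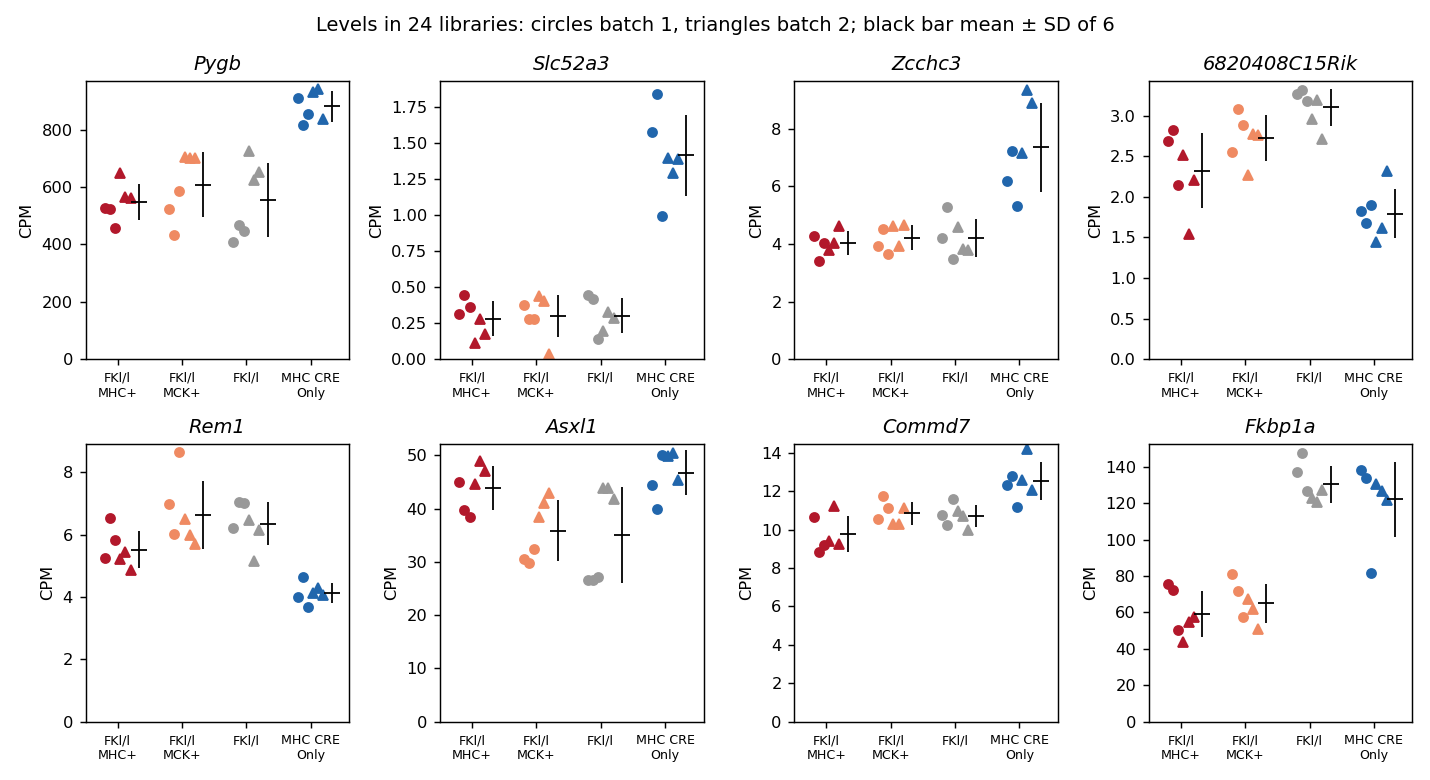
Level in CPM of the 7 called neighbours and of Fkbp1a in each of the 24 libraries, grouped as FKl/l MHC+, FKl/l MCK+, FKl/l and MHC CRE Only, with circles for batch 1, triangles for batch 2 and a black bar for the mean ± SD of 6. All 18 floxed libraries lie below MHC CRE Only for Pygb, Slc52a3 and Zcchc3 and above it for Rem1, whereas Fkbp1a in FKl/l stays with MHC CRE Only.

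Asxl1 and Commd7 changed less and with less certainty. Asxl1, which encodes a chromatin regulator of the Polycomb group that partners a histone H2A deubiquitinase, lies at chr2:153345829-153404007. It had lowest, median and highest CPM values of 38.5, 44.8 and 48.9 in FKl/l MHC+, 29.8, 35.4 and 43.03 in FKl/l MCK+, 26.6, 34.5 and 43.9 in FKl/l, and 39.98, 47.7 and 50.5 in MHC CRE Only. Every floxed genotype overlapped MHC CRE Only. Asxl1 fell by 0.31 ± 0.07 (SE) on the log2 scale (adjusted p = 0.0394), to 80.5% of the MHC CRE Only level. Without the library labelled MHC CRE Only 1-3 the log2 fold change was -0.25 and the call was lost (adjusted p = 0.143), which was lost in 13 of 24 refits with a single library left out. The other 12 lacked FKl/l 1-2, FKl/l MCK+ 1-1, 2-1 or 2-2, FKl/l MHC+ 1-2, 1-3, 2-2 or 2-3, or MHC CRE Only 1-1, 1-2, 2-1 or 2-2. Asxl1 holds an antisense gene, 2500004C02Rik, and since the strand setting of the counting is not given in the sources used here, their reads cannot be told apart.

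For Asxl1 the batches lay apart in FKl/l MCK+ and FKl/l and overlapped in FKl/l MHC+ and MHC CRE Only. FKl/l MHC+ libraries had 38.5, 39.7 and 45 CPM in batch 1 and 44.6, 47.1 and 48.9 CPM in batch 2. FKl/l MCK+ libraries had 29.8, 30.5 and 32.5 CPM in batch 1 and 38.4, 41.1 and 43.03 CPM in batch 2. The separation was wider still in FKl/l. There the libraries had 26.6, 26.7 and 27.2 CPM in batch 1 and 41.9, 43.8 and 43.9 CPM in batch 2. MHC CRE Only libraries had 39.98, 44.5 and 50.1 CPM in batch 1 and 45.4, 49.97 and 50.5 CPM in batch 2. Asxl1 had a log2 fold change of -0.47 in batch 1 and -0.16 in batch 2, and that difference passed the test (adjusted p = 0.0393). In batch 2 alone Asxl1 was not called (log2 fold change -0.17, adjusted p = 0.0853).

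Commd7, a COMM domain protein that takes part in endosomal sorting and NF-κB control, lies at chr2:153616933-153632781, farthest from Fkbp1a among the called genes, at 2.07 Mb after it. The lowest, median and highest CPM values of Commd7 were 8.85, 9.32 and 11.22 in FKl/l MHC+, 10.27, 10.8 and 11.7 in FKl/l MCK+, 9.97, 10.73 and 11.6 in FKl/l, and 11.2, 12.4 and 14.2 in MHC CRE Only. The floxed genotypes overlapped MHC CRE Only through the library labelled 1-3 alone, the lowest at 11.2 CPM. Commd7 fell by 0.27 ± 0.06 (SE) on the log2 scale in the floxed genotypes (adjusted p = 0.0456). The call was held in 7 of 24 refits with a single library left out and lost in the other 17, with adjusted p up to 0.105. It held without FKl/l 1-3, FKl/l MCK+ 1-2 or 2-3, FKl/l MHC+ 1-1, 2-1 or 2-2, or MHC CRE Only 1-3.

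Without the library labelled MHC CRE Only 1-3 the comparison called 5 neighbours in place of 7, and 16 of all 16189 genes tested in place of 62 of 16018. Pygb (log2 fold change -0.63), Slc52a3 (-2.38), Zcchc3 (-0.89), Rem1 (0.52) and Commd7 (-0.30) were still called, with adjusted p = 0.0417 for Commd7, and Asxl1 and 6820408C15Rik (0.58, adjusted p = 0.0596) were not. That library had 855 CPM of Pygb, 0.992 CPM of Slc52a3, 5.309 CPM of Zcchc3 and 3.68 CPM of Rem1. It lay on the MHC CRE Only side of the floxed libraries for each of these 4 genes, although its Fkbp1a level lay near those of the Cre-carrying floxed libraries, and it was the lowest of its group for Slc52a3, Zcchc3 and Rem1.

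**Figure D3:**
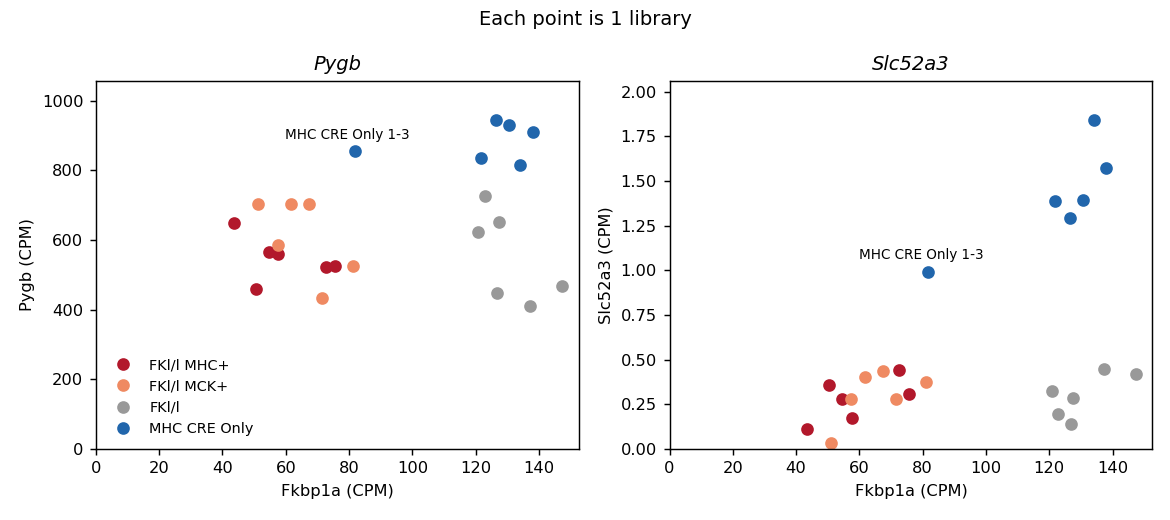
Level of Pygb (left) and Slc52a3 (right) against Fkbp1a, all in CPM, with each point 1 library coloured by genotype. FKl/l libraries have Fkbp1a levels like most of MHC CRE Only but Pygb and Slc52a3 levels like the Cre-carrying floxed libraries, and the library labelled MHC CRE Only 1-3 has 81.8 CPM of Fkbp1a with 855 CPM of Pygb.

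The same genes can be followed in each floxed genotype by itself. The 3 comparisons with MHC CRE Only share those 6 libraries, so their values are set side by side and are not independent of each other. FKl/l MHC+ had 6 neighbours called against MHC CRE Only (11.1%, against 1.87% of all genes), FKl/l MCK+ had 5 (9.26%, against 0.0999%) and FKl/l had 6 (11.1%, against 0.0437%). In FKl/l, where no Cre is named and Fkbp1a was not called (log2 fold change 0.09, adjusted p = 0.813), these 6 were all but 1 of the 7 genes called by edgeR's quasi-likelihood test. That near-absence of other calls depended on the setting. For the same comparison DESeq2 called 169 genes, 6 of them neighbours. Batch 1 alone called 17 genes with 2 neighbours, and batch 2 alone 79 genes with 3 neighbours. Pygb, Slc52a3, Zcchc3 and Rem1 were called in each of the 3 comparisons.

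For Pygb the log2 fold change was -0.70 in FKl/l MHC+, -0.56 in FKl/l MCK+ and -0.70 in FKl/l, each over MHC CRE Only (adjusted p = 4.46e-05, 0.00155 and 0.000168 in that order). That of Slc52a3 was -2.35, -2.21 and -2.24 in the same order (adjusted p = 0.000241, 0.00106 and 0.00188), and that of Zcchc3 was -0.86, -0.80 and -0.80 (adjusted p = 0.000225, 0.00106 and 0.00188). That of Rem1 was 0.41, 0.67 and 0.61 (adjusted p = 0.0266, 0.000709 and 0.00377), and its call in FKl/l MHC+ was lost when the library labelled MHC CRE Only 1-3 was left out (log2 fold change 0.36, adjusted p = 0.0524). The same call was lost when FKl/l MHC+ 1-2, FKl/l MHC+ 1-3 or MHC CRE Only 1-1 was left out, with adjusted p reaching 0.0777. Each of these 4 genes kept its direction in all 3 genotypes.

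The other calls were not shared by all 3 genotypes. 6820408C15Rik had log2 fold changes of 0.36 in FKl/l MHC+ (adjusted p = 0.181), 0.60 in FKl/l MCK+ (adjusted p = 0.0957) and 0.79 in FKl/l (adjusted p = 0.0116). Asxl1 had -0.09 in FKl/l MHC+ (adjusted p = 0.64), -0.40 in FKl/l MCK+ (adjusted p = 0.0498) and -0.45 in FKl/l (adjusted p = 0.0242). Without the library labelled MHC CRE Only 1-3 the adjusted p of Asxl1 was 0.119 in FKl/l MCK+ and 0.0692 in FKl/l. With a single library left out, the Asxl1 call in FKl/l MCK+ held in 6 of 24 refits, those without FKl/l 1-1, 1-3 or 2-2, FKl/l MHC+ 1-1 or 2-1, or MHC CRE Only 2-3 (adjusted p up to 0.151 in the others). Its call in FKl/l was lost when FKl/l 1-1, FKl/l 1-2, FKl/l 1-3, MHC CRE Only 1-2 or MHC CRE Only 1-3 was left out (adjusted p up to 0.133), and that of 6820408C15Rik in FKl/l was lost without MHC CRE Only 1-2 (adjusted p = 0.0506). Commd7 had -0.36 in FKl/l MHC+ (adjusted p = 0.00817), -0.21 in FKl/l MCK+ (adjusted p = 0.363) and -0.23 in FKl/l (adjusted p = 0.168). A call in 1 genotype and not in another does not show that they differ. Those differences are tested below.

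**Figure D4:**
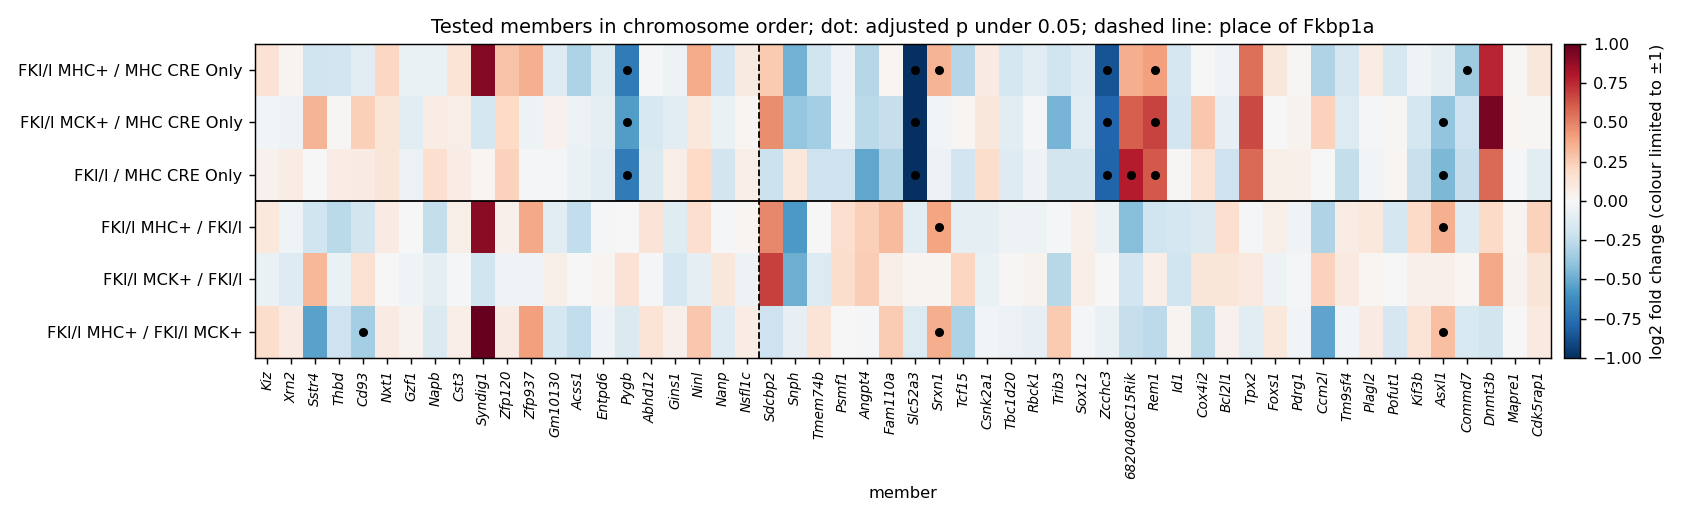
Log2 fold change of the 54 tested neighbours (columns, in chromosome order) in the 6 comparisons of 2 genotypes (rows), with a dot where the adjusted p is under 0.05, a dashed line at the place of Fkbp1a and colour limited to ±1. Pygb, Slc52a3, Zcchc3 and Rem1 carry dots in the 3 upper rows, set against MHC CRE Only, and in none of the 3 lower rows, which compare floxed genotypes.

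Among the floxed genotypes few neighbours differed. FKl/l MHC+ against FKl/l called 2 (3.70%, against 1.71% of all genes), FKl/l MCK+ against FKl/l called 0 (against 0.0499%) and FKl/l MHC+ against FKl/l MCK+ called 3 (5.56%, against 2.15%). In the comparison with 0 calls by edgeR's quasi-likelihood test, 2 neighbours had an unadjusted p under 0.05 (3.7%, against 5.24% of all genes). DESeq2 (17 genes called) and limma voom (6 genes called) also called 0 neighbours there. The genes called were Srxn1, Asxl1 and Cd93. For Pygb the log2 fold change was 0.0020 ± 0.0873 (SE) in FKl/l MHC+ over FKl/l, 0.14 ± 0.09 in FKl/l MCK+ over FKl/l and -0.14 ± 0.09 in FKl/l MHC+ over FKl/l MCK+, and for Slc52a3 it was -0.11 ± 0.37, 0.03 ± 0.36 and -0.14 ± 0.37 in that order.

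Srxn1 encodes sulfiredoxin, which restores over-oxidised peroxiredoxins, and lies 0.563 Mb after Fkbp1a. Srxn1 had lowest, median and highest CPM values of 22.4, 27 and 28.7 in FKl/l MHC+, 15.3, 20.7 and 22.2 in FKl/l MCK+, 16.9, 19.9 and 21.9 in FKl/l, and 18.4, 20.4 and 22.96 in MHC CRE Only. All FKl/l MHC+ libraries lay above those of FKl/l and FKl/l MCK+, and their lowest overlapped the top of MHC CRE Only. Srxn1 rose in FKl/l MHC+ by 0.40 ± 0.09 (SE) on the log2 scale over FKl/l (adjusted p = 0.0121), by 0.37 ± 0.09 over FKl/l MCK+ (adjusted p = 0.0231) and by 0.34 ± 0.09 over MHC CRE Only (adjusted p = 0.0371). The call over FKl/l was lost without FKl/l MHC+ 1-2 (adjusted p = 0.0506). The call over FKl/l MCK+ was lost without FKl/l MCK+ 1-1 or any of FKl/l MHC+ 1-2, 1-3 and 2-3, with adjusted p reaching 0.0739. The call over MHC CRE Only was lost in 9 of 24 such fits (adjusted p up to 0.114), those without FKl/l MHC+ 1-2, 1-3, 2-2 or 2-3 or without any MHC CRE Only library other than 1-3. Over the mean of the 3 floxed genotypes Srxn1 had a log2 fold change of 0.09 against MHC CRE Only (adjusted p = 0.661).

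Asxl1 was higher in FKl/l MHC+ than in FKl/l, by 0.36 ± 0.08 (SE) on the log2 scale (adjusted p = 0.0198), and higher than in FKl/l MCK+, by 0.30 ± 0.08 (adjusted p = 0.0485). The call over FKl/l was lost when any of the batch 1 FKl/l libraries, FKl/l MHC+ 1-1 or FKl/l MHC+ 1-2 was left out, with adjusted p reaching 0.0758, and that over FKl/l MCK+ in 17 of 24 such fits (adjusted p up to 0.125), all but those without FKl/l 1-1, 1-2, 1-3 or 2-2, FKl/l MHC+ 2-1, or MHC CRE Only 1-3 or 2-3. Cd93, a receptor-like glycoprotein of vessel-lining cells that lies 3.11 Mb before Fkbp1a, had lowest, median and highest CPM values of 57.9, 61.8 and 70.1 in FKl/l MHC+, 68.7, 73.7 and 102.9 in FKl/l MCK+, 58.2, 69.9 and 83.9 in FKl/l, and 56.1, 68.2 and 76.3 in MHC CRE Only. The FKl/l MHC+ and FKl/l MCK+ ranges met at 68.7 to 70.1 CPM. Cd93 was lower in FKl/l MHC+ than in FKl/l MCK+, by a log2 fold change of -0.34 ± 0.09 (adjusted p = 0.0401), and that call was lost in 8 of 24 fits, those without FKl/l 2-3, FKl/l MCK+ 1-1, 1-2 or 2-3, or FKl/l MHC+ 1-2, 1-3, 2-1 or 2-3, with adjusted p reaching 0.154. It was also lost with RLE scaling (log2 fold change -0.32, adjusted p = 0.0535), with limma voom (adjusted p = 0.054), with no batch term (adjusted p = 0.117), against a minimum fold of 1.2 (adjusted p = 1.0), and in batch 1 (adjusted p = 0.0994) or batch 2 alone (log2 fold change -0.18, adjusted p = 0.288). The summed level of 10 endothelial marker genes was 661 to 1050 CPM in the floxed libraries and 764 to 906 CPM in MHC CRE Only, with the highest in FKl/l MCK+ 1-2. These ranges pool the floxed genotypes and do not set FKl/l MHC+ beside FKl/l MCK+. The part of that level in the Cd93 result was not tested.

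Along the chromosome the called genes did not follow one another without a gap. Of 21 tested neighbours before Fkbp1a 1 was called, and of 33 after it 6 were called, against 0.387% of all genes tested. The list reaches from -4.69 to 2.79 Mb relative to Fkbp1a, so these counts do not compare like distances on either side. The 7 called starts span 2.83 Mb, from Pygb at -0.756 Mb to Commd7 at 2.07 Mb relative to Fkbp1a, a stretch that holds 36 tested neighbours. The stretch is defined by the calls themselves, so its ends carry no test. Uncalled genes lay between the called ones. Entpd6, an ectonucleotidase, and Abhd12, a lipid hydrolase, flank Pygb on either side, were named after their values were seen, and both had log2 fold changes of -0.11 (adjusted p = 0.479 for Entpd6 and 0.477 for Abhd12).

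The tested neighbours closest to Fkbp1a were not called. Nsfl1c, a cofactor of the segregase VCP, starts 0.0483 Mb before Fkbp1a and had lowest, median and highest levels of 45.4, 55.2 and 59.3 CPM over the 18 floxed libraries and 49.1, 51.7 and 57.7 CPM in MHC CRE Only (log2 fold change 0.06 ± 0.05, adjusted p = 0.692). Sdcbp2, which encodes the scaffold protein syntenin-2, starts 0.0301 Mb after Fkbp1a and had 0.327, 0.718 and 1.58 CPM over the floxed libraries and 0.435, 0.654 and 1.14 CPM in MHC CRE Only (log2 fold change 0.17 ± 0.24, adjusted p = 0.827). The groups overlapped for both genes. At the ends of the whole list along the chromosome, the centrosome gene Kiz had 29.2, 37 and 51.8 CPM over the floxed libraries and 29.4, 36.9 and 50.4 CPM in MHC CRE Only (log2 fold change 0.05, adjusted p = 0.805). Cdk5rap1, which modifies transfer RNAs in mitochondria, had 7.23, 8.71 and 10.44 CPM over the floxed libraries and 7.64, 8.53 and 9.85 CPM in MHC CRE Only (log2 fold change 0.0047, adjusted p = 0.989).

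**Figure D5:**
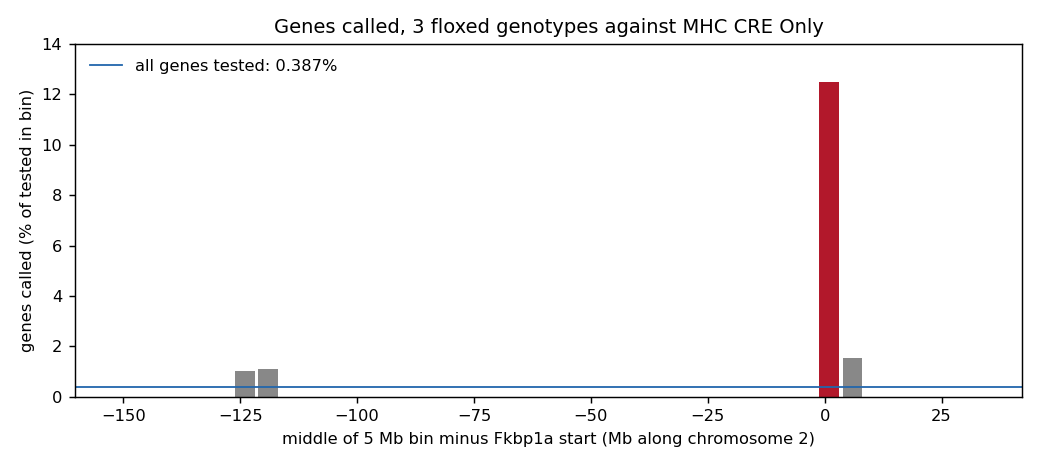
Share of tested genes called in the 3 floxed genotypes against MHC CRE Only, in bins of 5 Mb along chromosome 2, placed by the distance of the bin's middle from Fkbp1a in Mb. The bin around Fkbp1a (red) holds 8 called of 64 tested genes, 12.5%, Fkbp1a included, and the blue line marks 0.387% over all genes tested.

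Outside the bin around Fkbp1a, calls were sparse on chromosome 2. The bin of 5 Mb that holds Fkbp1a had 8 called of 64 tested genes (12.5%), of which 7 were neighbours and 1 was Fkbp1a. The rest of chromosome 2, which includes the neighbours from Kiz to Syndig1, had 3 called of 1149 (0.261%). The other chromosomes had 51 called of 14805 (0.344%). All 18 floxed libraries lay above or below all 6 MHC CRE Only libraries for 4 of the 54 neighbours (7.41%), against 6 of all 16018 genes tested (0.0375%). The 2 genes of these 6 that lie elsewhere are D630002J18Rik on chromosome 3 and Gm49891 on chromosome 4, both higher in the floxed libraries and named after their values were seen.

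By role, the calls were spread over the list. Over all genes tested, 0.387% were called and 13.3% had an unadjusted p under 0.05. A role with 0 calls among so few genes is thus not set apart from genes at large. Of 8 tested enzymes of metabolism and redox 1 fell, Pygb. The signalling and transport genes had 1 higher (Rem1) and 1 lower (Slc52a3) of 6, the RNA handling genes 1 lower (Zcchc3) of 4, the transcription and chromatin genes 1 lower (Asxl1) of 10, the protein turnover and trafficking genes 1 lower (Commd7) of 9, and the little-known genes 1 higher (6820408C15Rik) of 3. No gene was called by edgeR's quasi-likelihood test or limma voom among 7 genes of the centrosome, spindle and replication (1 with an unadjusted p under 0.05), 4 of the vessel lining and clotting (0 with an unadjusted p under 0.05) and 3 neuronal membrane genes (1 with an unadjusted p under 0.05). DESeq2 also called 0 of these 14, but gave no adjusted p for 5 of them, namely 2 of the 7, 1 of the 4 and 2 of the 3.

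The 47 tested neighbours that were not called lay on both sides of 0. Their log2 fold changes over MHC CRE Only were above 0 for 23 and below it for 24, ran from -0.36 for Angpt4, an angiopoietin, to 0.76 for Dnmt3b, a de novo DNA methyltransferase, and were under 0.2 in size for 38. Dnmt3b had the lowest adjusted p among them, 0.106, with 0.653, 1.01 and 2.02 CPM (lowest, median and highest) over the floxed libraries and 0.438, 0.633 and 0.876 CPM in MHC CRE Only. The median size of the log2 fold change was 0.131 over the 54 neighbours, which include the called ones, and 0.0941 over all genes tested, and the signed medians were -0.031 and -0.0077. An unadjusted p under 0.05 was found for 15 neighbours (27.8%) and for 13.3% of all genes.

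Per kb of exon the most abundant neighbours were Cst3, Pygb, Acss1 and Pdrg1. Acss1, a mitochondrial enzyme that makes acetyl-CoA from acetate, stood at 32.4 CPM per kb, and Pdrg1, a prefoldin-like protein, at 32.3 CPM per kb. Of these 4 only Pygb was called. Cst3 had lowest, median and highest levels of 466, 573.5 and 716.5 CPM over the floxed libraries and 486.5, 518.5 and 648 CPM in MHC CRE Only. Acss1 had 80.03, 128.5 and 176 CPM over the floxed libraries and 119.7, 147 and 157 CPM in MHC CRE Only (log2 fold change -0.14, adjusted p = 0.439).

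The remaining 5 genes were too low to test. Rspo4, a Wnt pathway activator, reached 0.155 CPM at most, Scrt2, a transcriptional repressor of neurons, 0.0615 CPM, Nrsn2, a neuronal membrane protein, 0.215 CPM, Mylk2, the skeletal muscle myosin light chain kinase, 0.486 CPM, and Dusp15, a phosphatase, 0.412 CPM. Scrt2 had 6 counts in all over the 18 floxed libraries and 0 counts over the 6 MHC CRE Only libraries, too few to tell them apart.

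The authors' deposited tables of 2 of these comparisons also list neighbours among their calls. Their p-values test against a minimum fold of 1.2. In the authors' deposited table of FKl/l MHC+ against MHC CRE Only, 11 of 16363 genes have an adjusted p under 0.05 (0.0672%), of which 2 are neighbours, Slc52a3 (log2 fold change -2.31, adjusted p = 0.0093) and Pygb (-0.69, adjusted p = 0.0425). In the authors' deposited table of MHC CRE Only against FKl/l, whose fold changes run MHC CRE Only over FKl/l, 1 of 16363 genes has one (0.00611%), and it is Slc52a3 (log2 fold change 2.28, adjusted p = 0.0249). Pygb (0.70, adjusted p = 0.134) and Zcchc3 (0.82, adjusted p = 0.469) follow it in rank in that deposited table. The deposited tables that compare floxed genotypes call 0 neighbours, Srxn1, Asxl1 and Cd93 included. They call 2 genes in FKl/l MCK+ against FKl/l, 23 in FKl/l MHC+ against FKl/l and 14 in FKl/l MHC+ against FKl/l MCK+.

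Facts of the libraries as a whole bear on these values. A library held 27799403 to 40412640 counts over its gene rows. Summed levels of 6 cardiomyocyte markers came to 36800 to 46000 CPM in the floxed libraries and 36000 to 44900 CPM in MHC CRE Only. Lung and airway markers reached 780 CPM in MHC CRE Only 2-3, where the median over all libraries was 4.09 CPM. Without that library, the library labelled MHC CRE Only 1-3 and FKl/l 1-1 together, 5 neighbours were called (of 14 genes called among 16337 tested), with Pygb at -0.66, Slc52a3 at -2.40, Zcchc3 at -0.85, 6820408C15Rik at 0.72 and Rem1 at 0.53 on the log2 scale. All 24 libraries held Y-linked transcripts, and 4 such genes summed to 62.5 to 96.3 CPM in the floxed libraries and 53.1 to 69.3 CPM in MHC CRE Only. Of these 4 genes 1 was itself called higher in the floxed genotypes, so a term for their sum may take up part of the comparison. With a term for that sum, chosen after seeing the data, 5 of all 16018 genes were called, of which 3 were neighbours, Pygb (log2 fold change -0.54), Slc52a3 (-2.32) and Zcchc3 (-0.90), Rem1 was not (0.54, adjusted p = 0.0544), and the comparison of FKl/l with MHC CRE Only called 0 of the 16018 genes, neighbours included.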

How the data were processed

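RNA-seq of 24 whole-heart mouse libraries was analysed from deposited tables. Per the labels' protocols, TRIzol was used to extract total RNA and a directional kit to prepare it for sequencing. Per the submitters' processing notes, STAR and RSEM were among the tools, beside Trim Galore, FastQC and bcl2fastq 2.17, and the build was mm10. The sources used here do not give their roles, the annotation or the strand setting. The deposited count table holds whole-number counts per gene row, not normalized by the authors. Per the file headers, each table of a comparison that the authors deposited lists for every gene its log2 fold change and log2 mean level, a score that is the test statistic, and the raw and adjusted p-value. In the deposited tables that score is 0 for small fold changes, which marks a test against a minimum fold of 1.2.

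Transcript-named rows (3660 of 56384, holding 0.873 to 4.28% of a library's counts) were left out. Library sizes were scaled by TMM, genes were filtered by filterByExpr over genotypes, and edgeR 4.0.16 (limma 3.58.1, R 4.3.3) fitted all 24 libraries with genotype and batch terms. The robust quasi-likelihood test was 2-sided, with Benjamini-Hochberg adjustment over the 16018 genes. The scripts were tested on simulated data. CPM values were computed here. Alternatives were RLE scaling, other filters, DESeq2 1.42.0, limma voom, a minimum fold, other batch terms and left-out libraries. Positions come from GENCODE M21, promoters from RefSeq. The genes and lists were chosen with earlier results of these data known. Named genes were those called in any comparison, the nearest and outermost tested neighbours and the 4 most abundant per kb; others are named as chosen after their values were seen or by range.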

Additional observations from a re-analysis of the deposited data

Results flagged for a closer look

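In 4 of the 56 sets of 6 libraries looked at (14 genes in 4 genotypes), 1 library stood far from the other 5 by Dixon's gap test, which chance alone does in about 1 set in 20. Fkbp1a was 81.8 CPM in the library labelled MHC CRE Only 1-3, where the other 5 of that genotype had 122 to 138 CPM. Srxn1 was 15.3 CPM in FKl/l MCK+ 1-2, where the other 5 had 19.9 to 22.2 CPM. Nsfl1c was 45.4 CPM in FKl/l 1-3, where the other 5 had 54.7 to 59.3 CPM. Sdcbp2 was 1.58 CPM in FKl/l MCK+ 1-2, where the other 5 had 0.669 to 0.984 CPM.

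The log2 fold change of the floxed genotypes over MHC CRE Only differed between batches, by edgeR's test of the interaction, for 6 of the 54 tested neighbours (11.1%), against 9.25% of all genes tested. As batch 2 minus batch 1, the difference was 0.484 for Gzf1, 0.419 for Acss1, 0.355 for Pygb, -0.569 for Tcf15, 0.593 for Bcl2l1 and 0.311 for Asxl1. The adjusted p-values lay between 0.0118 (Bcl2l1) and 0.043 (Pygb). Pygb and Asxl1 were lower in the floxed genotypes in both batches. Without the library labelled MHC CRE Only 1-3 no neighbour (and 183 of all 16189 genes) was called in that test. From 1 to 3 neighbours (of 311 to 1311 genes called) were called without FKl/l 2-1 or 2-3, FKl/l MCK+ 1-2, 2-1 or 2-2, FKl/l MHC+ 1-2, 1-3 or 2-3, or MHC CRE Only 2-1, 2-2 or 2-3. The part of library preparation or sequencing in this difference was not tested.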

How the results depend on the processing

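The count of neighbours called in the 3 floxed genotypes against MHC CRE Only was 7 and lay between 5 and 7 with RLE scaling, other filters, DESeq2, limma voom, either batch alone or without the 3 libraries that stood apart. Over all genes these settings called 48 (RLE), 70 (no filter), 72 (stricter filter), 250 (DESeq2), 30 (limma voom), 234 (batch 1), 535 (batch 2) and 14 (without the 3 libraries), against 62 as reported, so the share of all genes that goes with 5 to 7 neighbours differed widely. The neighbours called were 4 (of 7 genes) with no batch term, 3 (of 4) against a minimum fold of 1.2 and 3 (of 5) with the Y-linked term. Leaving out 1 library gave 4 to 7 calls (of 14 to 101 genes called), 4 each without MHC CRE Only 1-1, 1-2, 2-1 or 2-2. Pygb, Slc52a3, Zcchc3 and Rem1 were called in all 24 of these fits. DESeq2 gave no adjusted p for 11 neighbours, Slc52a3 among them, and the stricter filter left Slc52a3 out.

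In the counts that follow, the number after "of" is all genes called in that fit. FKl/l MHC+ against MHC CRE Only called 1 neighbour of 78 genes in batch 1 alone, 5 of 915 in batch 2 alone and 3 of 17 against the minimum fold. With 1 library left out it called 4 to 6, of 135 to 482 genes. FKl/l MCK+ against MHC CRE Only called 1 of 5 in batch 1, 2 of 44 in batch 2, 2 of 5 against the minimum fold and 3 of 6 with no batch term. With 1 left out it called 4 to 6, of 8 to 23 genes. FKl/l against MHC CRE Only called 2 of 17 in batch 1, 3 of 79 in batch 2, 2 of 2 against the minimum fold and 3 of 4 with only the libraries compared. It called 0 with the Y-linked term, where no gene at all was called. With 1 left out it called 4 to 6, of 4 to 17 genes. FKl/l MHC+ against FKl/l called 0 of 160 in batch 2, 0 of 42 against the minimum fold and 1 of 120 with no batch term. With 1 left out it called 0 to 3, of 152 to 407 genes. FKl/l MHC+ against FKl/l MCK+ called 1 of 171 in batch 2, 1 of 311 with limma voom and 2 of 334 with RLE scaling. It called 0 of 17 against the minimum fold and 0 of 103 with no batch term. With 1 left out it called 0 to 3, of 143 to 490 genes. FKl/l MCK+ against FKl/l called 0 in every setting run, of 1 to 17 genes. The interaction with batch called 2 of 1141 with RLE scaling and 0 to 6 with 1 library left out, of 183 to 1801 genes. Fits of 1 batch hold 3 libraries a genotype; the cause of the other shifts was not tested.

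Over 13 settings other than leaving out 1 library, 434 values of named genes were recomputed, of which 327 kept their direction and their side of the threshold, 98 lost a call and 9 turned sign. All 9 were uncalled genes in the floxed genotypes against MHC CRE Only, as log2 fold changes: Srxn1 -0.0199, Kiz -0.0575 and Cdk5rap1 -0.051 in batch 1, Cd93 -0.0319 and Sdcbp2 -0.0631 in batch 2, Cd93 -0.0063 and Cdk5rap1 -0.0608 without the 3 libraries, and Cd93 -0.0512 and Sdcbp2 -0.142 with the Y-linked term. Cdk5rap1 ran from -0.0217 to 0.0579 with 1 library left out.

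Within a batch the genotypes share library numbers. Same-numbered libraries of different genotypes did not deviate together (correlations of -0.238 to 0.162, median -0.027, over 36 pairs). With the number as a replicate block, 5 neighbours of 25 genes called were found in the floxed genotypes against MHC CRE Only. Against the same libraries these were 5 of 215 in FKl/l MHC+, 4 of 13 in FKl/l MCK+ and 5 of 6 in FKl/l. Slc52a3 rests on as few as 1 count per floxed library, which limits its fold change, and Asxl1 and Commd7 sit near the threshold.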
